A study of Homo sapiens with 16 samples.

Results

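Matrix metalloproteinases (MMPs), ADAMs, ADAMTS proteinases and the tissue inhibitors of metalloproteinases (TIMPs) were followed through 16 RNA sequencing libraries of glioblastoma xenografts. The genes were taken by symbol, as every row of either expression table named MMP, ADAM, ADAMTS or TIMP followed by a number. This gave 43 genes of the 18529 listed in either table: 13 MMPs, 15 ADAMs, 11 ADAMTS genes and 4 TIMPs. The table of the first experiment listed 37 of them among 17318 genes and that of the second 41 among 18168, with 35 in both. No symbol was repeated.

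The tumours were grown in the brains of nude mice from U87, an established human glioblastoma line that carried luciferase and is labelled wild type. In the first experiment, 3 mice received exosomes of MSC (the abbreviation of the labels) loaded with siRNA 1 against human MYC (Myc1), and 4 received exosomes with scramble siRNA 1 (Scr1). In the second, 5 mice received siRNA 2 against human MYC (Myc2) and 4 received scramble siRNA 2 (Scr2). All mice of the first experiment were dosed through the retro-orbital sinus from day 28, every other day, with 1e9 exosomes in 100 µl. The sources used here do not give the schedule of the second experiment or the ages of the mice. Every tumour was taken when its mouse met the criteria for euthanasia, so tumours of a group need not be of the same age. Nude mice lack mature T cells and keep their myeloid cells, vessels and glia, and the tables list human genes. How reads of these host cells were handled is not given in the sources used here.

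These enzymes share a zinc-dependent catalytic domain. MMPs cleave collagens, laminins and other matrix proteins, membrane-bound MMPs activate secreted ones at the cell surface, ADAMs shed the outer part of membrane proteins such as Notch and growth factor precursors, and ADAMTS enzymes cut proteoglycans and process procollagens. TIMPs bind the catalytic site and block it. In glioblastoma, MMP14 with MMP2 is known for the breakdown of the brain's matrix during invasion, and TIMP2 is both an inhibitor and, at low amounts, the adaptor through which MMP14 activates the MMP2 proenzyme.

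The zinc site that defines the enzymes is shown as its coding sequence for the proteinase genes that the comparisons turn on. Each run is 33 bases long, from the GENCODE 29 transcripts (GRCh38), and the capitals mark the codons of the 3 zinc-binding histidines, the catalytic glutamate and the conserved glycine.
MMP14 (chromosome 14): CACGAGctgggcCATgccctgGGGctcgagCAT
ADAM8 (chromosome 10): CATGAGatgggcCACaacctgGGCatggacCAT
ADAM19 (chromosome 5): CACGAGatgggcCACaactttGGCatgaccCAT
ADAM17 (chromosome 2): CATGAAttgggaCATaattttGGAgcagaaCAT
ADAMTS14 (chromosome 10): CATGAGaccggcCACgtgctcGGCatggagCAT
ADAMTS13 (chromosome 9): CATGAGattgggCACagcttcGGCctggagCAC
A search of the coding sequences for this pattern found it in 31 of the 41 genes that have a coding transcript, against 61 of 19580 coding genes (0.312%). All 13 MMPs held it. It was found in 9 of 13 ADAMs, with no match in ADAM11, ADAM22, ADAM23 and ADAM32, which are known to lack proteinase activity. It was in 9 of 11 ADAMTS genes, and ADAMTS1 and ADAMTS4, both active enzymes, did not hold these exact residues. None of the 4 inhibitors held it. ADAM1A and ADAM1B are annotated as pseudogenes in humans.

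Promoters are shown for MMP14, ADAMTS14 and ADAM8, which were among the genes of the family with the smallest limma p with siRNA 2, and for ADAM19, which had the smallest with siRNA 1. None of these 4 genes passed adjustment. Each is the 250 bases before the gene's annotated start (RefSeq, GRCh38.p14), read along the gene's strand, with GC boxes in capitals.
MMP14 (chr14:22836335-22836584, plus strand): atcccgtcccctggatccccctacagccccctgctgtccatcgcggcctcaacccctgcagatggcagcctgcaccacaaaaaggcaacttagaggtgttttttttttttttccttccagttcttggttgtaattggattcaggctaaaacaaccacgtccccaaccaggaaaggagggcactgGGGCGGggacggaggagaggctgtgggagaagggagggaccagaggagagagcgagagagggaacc
ADAMTS14 (chr10:70672256-70672505, plus strand): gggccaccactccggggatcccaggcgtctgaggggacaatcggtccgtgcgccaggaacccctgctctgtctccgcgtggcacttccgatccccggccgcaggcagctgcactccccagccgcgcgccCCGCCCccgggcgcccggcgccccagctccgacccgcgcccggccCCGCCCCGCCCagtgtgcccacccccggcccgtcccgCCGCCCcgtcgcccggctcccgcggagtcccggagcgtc
ADAM8 (chr10:133276869-133277118, minus strand): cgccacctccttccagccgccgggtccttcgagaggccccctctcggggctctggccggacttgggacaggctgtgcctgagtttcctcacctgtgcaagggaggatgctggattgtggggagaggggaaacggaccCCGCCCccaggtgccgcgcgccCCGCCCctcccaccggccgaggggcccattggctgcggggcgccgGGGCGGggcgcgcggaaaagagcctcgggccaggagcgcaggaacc
ADAM19 (chr5:157575776-157576025, minus strand): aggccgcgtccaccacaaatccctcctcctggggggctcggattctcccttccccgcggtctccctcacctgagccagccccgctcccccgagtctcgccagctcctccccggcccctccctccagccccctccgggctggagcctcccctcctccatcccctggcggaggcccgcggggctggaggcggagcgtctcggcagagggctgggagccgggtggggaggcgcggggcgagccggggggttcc
A total of 4 motifs were searched on both strands of these windows. The E-box bound by MYC (CACGTG) was in 2 of the 25 genes with a promoter in the table, ADAM10 and ADAMTS6, and in 6.49% of all 27305 promoters. The AP-1 site (TGANTCA) was in ADAMTS12 and MMP7, and in 6.60% of all promoters. The ETS-type PEA3 element (AGGAAG) was in 7 of the 25, against 28.7% of all promoters. The GC box (GGGCGG) was in 21 of the 25, or 84%, against 42.3% of all promoters. The 27305 promoters outnumber the 19580 coding genes counted above, so they are not of coding genes alone. A share over promoters of coding genes is not given. None of the 4 motifs contains another. The 4 promoters printed hold no E-box and no AP-1 site, and 3 of them hold GC boxes: 4 in ADAMTS14, of which 2 overlap by 1 base, 3 in ADAM8 and 1 in MMP14.

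The libraries differed in ways that touch the results. In the first experiment Scr1 replicate 3 was shallow, at an estimated 3.36 M reads, and the other 6 libraries held 15.1 to 23.9 M. In the second, Scr2 replicate 4 held 10.5 M and the other 8 libraries 15.2 to 29.6 M. On the first principal component of all genes, Scr1 replicate 4 lay at -61.46 and the other tumours of its experiment between -29.51 and 44.68. Scr2 replicates 1 and 4 lay at -63.45 and -94.41, and the other tumours of the second experiment between 2.74 and 47.56. MYC, the siRNA target, stood at 38.1, 26.5 and 14.3 counts per M reads (CPM) in Myc1, against 21.2, 30.2, 50.7 and 108 CPM in Scr1. Libraries labelled Myc2 had 42.3 to 72.1 CPM of MYC and those labelled Scr2 25.9 to 47.1 CPM, so the second experiment's target goes against its label, and every direction drawn from it below is that of libraries labelled Myc2 and Scr2. The mesenchymal markers of U87 were all listed, with VIM at 3682 to 6074 CPM, whereas of 8 markers of microglia and macrophages 3 were listed in each table. CD68 was at 156 to 383 CPM and CSF1R at 6.56 to 32.8 CPM over both, ITGAM at up to 0.297 CPM in the first and PTPRC at up to 1.10 CPM in the second.

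Levels were first set side by side between genes per kilobase of exon, since longer transcripts give more reads. The exon length is that annotated for the gene and need not be the length of the transcripts expressed. Close ranks can depend on it. MMP2, the gelatinase that cuts type IV collagen, was the highest of the 43 in each group, with group means of 8.94 log2 CPM per kilobase in Myc1, 8.997 in Scr1, 9.15 in Myc2 and 8.44 in Scr2. TIMP1, the broad MMP inhibitor, came second, at 8.71 in Myc1, 8.496 in Scr1, 7.69 in Myc2 and 7.94 in Scr2. MMP14, the membrane-bound activator of MMP2, had the rank below TIMP1 in each group, at 7.25 in Myc1, 7.53 in Scr1, 7.19 in Myc2 and 6.48 in Scr2. TIMP4, TIMP2 and the shedding enzyme ADAM9 took ranks 4 to 6 in Scr1, Myc2 and Scr2, in an order that differed between groups, and in Myc1 ADAM12 had rank 6 and ADAM9 rank 7. The tables were normalized separately, so these levels rank genes within a table and do not compare the experiments.

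**Figure D1:**
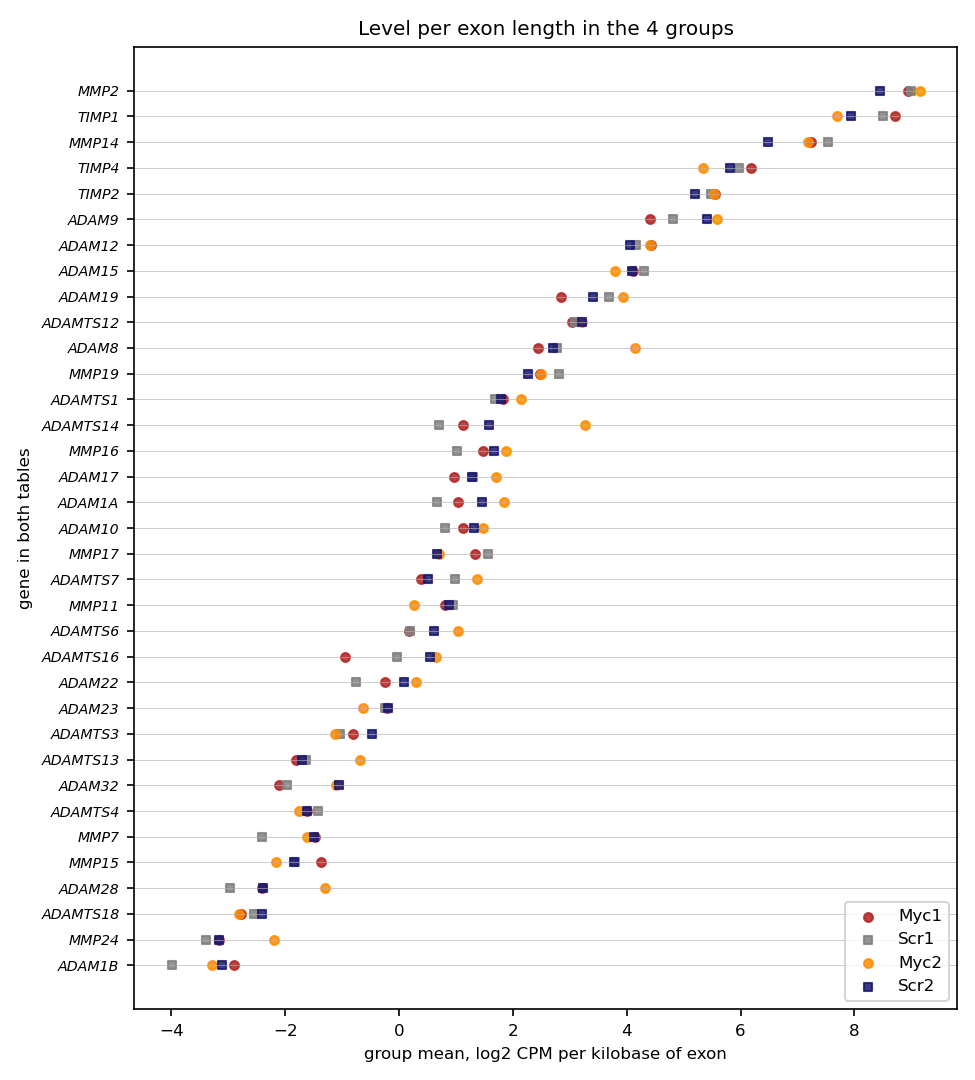
Group mean log2 CPM per kilobase of exon (horizontal axis) for the 35 genes in both tables (vertical axis, highest at the top). Circles stand for Myc1 and Myc2 and squares for Scr1 and Scr2. MMP2 is highest in all 4 groups, at 8.44 to 9.15, and TIMP1 and MMP14 follow. Values of the experiments were normalized separately.

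As a whole the family took 4704, 5024 and 5498 CPM in Myc1, against 4447, 5486, 4947 and 6281 CPM in Scr1. It took 5551, 5882, 4616, 5886 and 5356 CPM in Myc2, against 3536, 5483, 4945 and 2599 CPM in Scr2. The lowest sums were those of Scr2 replicates 4 and 1, the libraries that stand apart over all genes. Summed U87 markers ran from 11090 to 13198 CPM in Myc2 and from 6522 to 13964 CPM in Scr2, and their part in the result was not tested. MMP2 alone made up 30.4% to 58.8% of the family's CPM in a tumour. In these bulk tumours, fewer cells of a type and less RNA per cell cannot be told apart.

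A gene entered a test when it reached 1 CPM in as many tumours as the smaller group had. In the first table, 32 of the 37 listed genes did, and ADAM1B, ADAMTS18, ADAMTS5, MMP1 and MMP24 did not. In the second, 33 of 41 did, and ADAM11, ADAM1B, ADAM21, MMP23B, MMP24, MMP25, MMP9 and TIMP3 did not. The differences below are log2 CPM in the MYC siRNA group minus log2 CPM in its scramble group, from limma fitted to all genes, with the standard error (SE).

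With siRNA 1 the log2 differences of the family ran from -0.90 (ADAMTS16) to 0.93 (MMP7). No gene of the family passed the adjusted threshold of 0.05, and 0% of 13933 genes did. At an unadjusted limma p under 0.05 there were 2 of 32 genes, the shedding enzyme ADAM19 and the secreted proteinase ADAMTS16, both lower in Myc1, against 3.48% of all genes (1.96% higher and 1.52% lower). The 32 genes had 15 differences above 0 and 17 below, with a median of -0.03, and over all genes 49.5% were above 0 with a median of -0.0028. Without Scr1 replicate 4, which stands apart over all genes, 17 of the 32 lay above 0 and the median was 0.041, so its sign rests on that library. Without the shallow Scr1 replicate 3, 13 of the 32 lay above 0, with a median of -0.081. The count at a limma p under 0.05 was then again 2 of 32, against 6.92% of all genes, so the share of 3.48% depends on the libraries used. In the full fit no difference in the family was past 1, against 3.02% of all genes.

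ADAM19, which sheds neuregulins, was at 73.0, 39.2 and 60.5 CPM in Myc1, against 71.9, 97.9, 143 and 95.2 CPM in Scr1. The groups overlapped by a single pair of tumours, Myc1 replicate 1 and Scr1 replicate 1. The log2 difference was -0.83 ± 0.27 (SE; limma p = 0.0086, adjusted p = 0.996; exact permutation p = 0.0857, n = 3 and 4). ADAMTS16 was at 2.95, 3.78 and 2.54 CPM in Myc1, against 5.71, 4.54, 6.08 and 6.69 CPM in Scr1. All 3 Myc1 tumours lay below all 4 Scr1 tumours, and ADAMTS16 was the single tested gene of the family with separate groups. Over all genes tested 4.21% had separate groups, 1.94% with Myc1 higher and 2.27% with Myc1 lower. Its log2 difference was -0.90 ± 0.34 (SE; limma p = 0.0192, adjusted p = 0.996), and the exact permutation p of 0.0286 is the smallest that 3 against 4 tumours allow. With 1 tumour left out, the log2 difference ran from -1.02 to -0.58 for ADAM19 and from -1.06 to -0.77 for ADAMTS16.

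The MMP2 activation genes did not pass the test with siRNA 1. MMP14 was at 720, 480 and 898 CPM in Myc1, against 805, 937, 708 and 868 CPM in Scr1, a log2 difference of -0.29 ± 0.23. MMP2 was at 2151, 2706 and 2457 CPM in Myc1, against 2036, 2586, 2373 and 3231 CPM in Scr1, which is a log2 difference of -0.05 (95% interval -0.48 to 0.37). The groups overlapped for both genes. Of the other MMPs tested, the membrane-bound MMP16 (0.46 ± 0.27) and MMP15 (0.45 ± 0.55), the small secreted MMP7 (0.93 ± 0.75) and MMP19 (-0.33 ± 0.28) had limma p between 0.119 and 0.427. The 8 MMPs tested had a median log2 difference of -0.10, with 3 above 0, and without Scr1 replicate 4 a median of 0.099, with 5 above 0.

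Among the sheddases, ADAM10, which makes the first ligand-induced cut of Notch, differed by 0.31 ± 0.29 and ADAM17, which releases TNF and EGF receptor ligands, by -0.34 ± 0.30. ADAM9 differed by -0.40 ± 0.32, ADAM15 by -0.20 ± 0.21, ADAM12 by 0.26 ± 0.26 and ADAM8 by -0.33 ± 0.31. All of their 95% intervals include 0. The median of the 12 ADAMs tested was -0.04 and that of the 9 ADAMTS genes -0.04. ADAMTS1 and ADAMTS4, which cut the proteoglycans versican and aggrecan, differed by 0.14 ± 0.26 and -0.19 ± 0.43.

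The inhibitors had small positive differences with siRNA 1. TIMP1 was at 582, 523 and 874 CPM in Myc1, against 489, 482, 640 and 634 CPM in Scr1, which is a log2 difference of 0.21 (95% interval -0.27 to 0.69). TIMP2 differed by 0.07 ± 0.24 and TIMP4 by 0.21 ± 0.21, and the groups overlapped for all 3 inhibitors.

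Genes under the filter in the first experiment included MMP1, the interstitial collagenase. It was listed at 0.544, 0.344 and 1.56 CPM in Myc1, against 0.0984, 0.203, 0.432 and 0.0333 CPM in Scr1. ADAMTS5, an aggrecanase, was at 0.544, 0.438 and 0.438 CPM in Myc1, against 0.0333, 0.0577, 0.432 and 0.0333 CPM in Scr1, and its groups did not overlap. The exact permutation p was 0.0857 for MMP1 and 0.0571 for ADAMTS5. The values of 0.0333 CPM are the lowest of their libraries, and the highest Scr1 value of both genes came from replicate 3, the library with 3.36 M reads. Without the filter these 2 genes had unadjusted limma p of 0.0197 and 0.0129, with an adjusted p of 0.993.

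With siRNA 2 the genes with the smallest p were all higher in the libraries labelled Myc2. ADAMTS14, a procollagen N-proteinase, MMP14, ADAMTS13, the von Willebrand factor-cleaving proteinase, and ADAM8, a sheddase known mainly from leukocytes, had an unadjusted limma p under 0.05, which makes 4 of 33 genes, all higher. Over all 14208 genes tested, 13.4% had such a p, 7.00% higher and 6.36% lower. None passed the adjusted threshold (limma adjusted p = 0.370 for all 4), nor did any gene of the table (0% of 14208). Of the 33 genes 21 lay above 0 and 12 below, with a median of 0.21, whereas over all genes 48.2% lay above 0 and the median was -0.018. Without Scr2 replicates 1 and 4 the median of the 35 genes then tested was -0.06, with 15 above 0 and 20 below. The sign of the family's median thus rests on those libraries. Over all genes at that setting 46.0% lay above 0 and the median was -0.024.

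**Figure D2:**
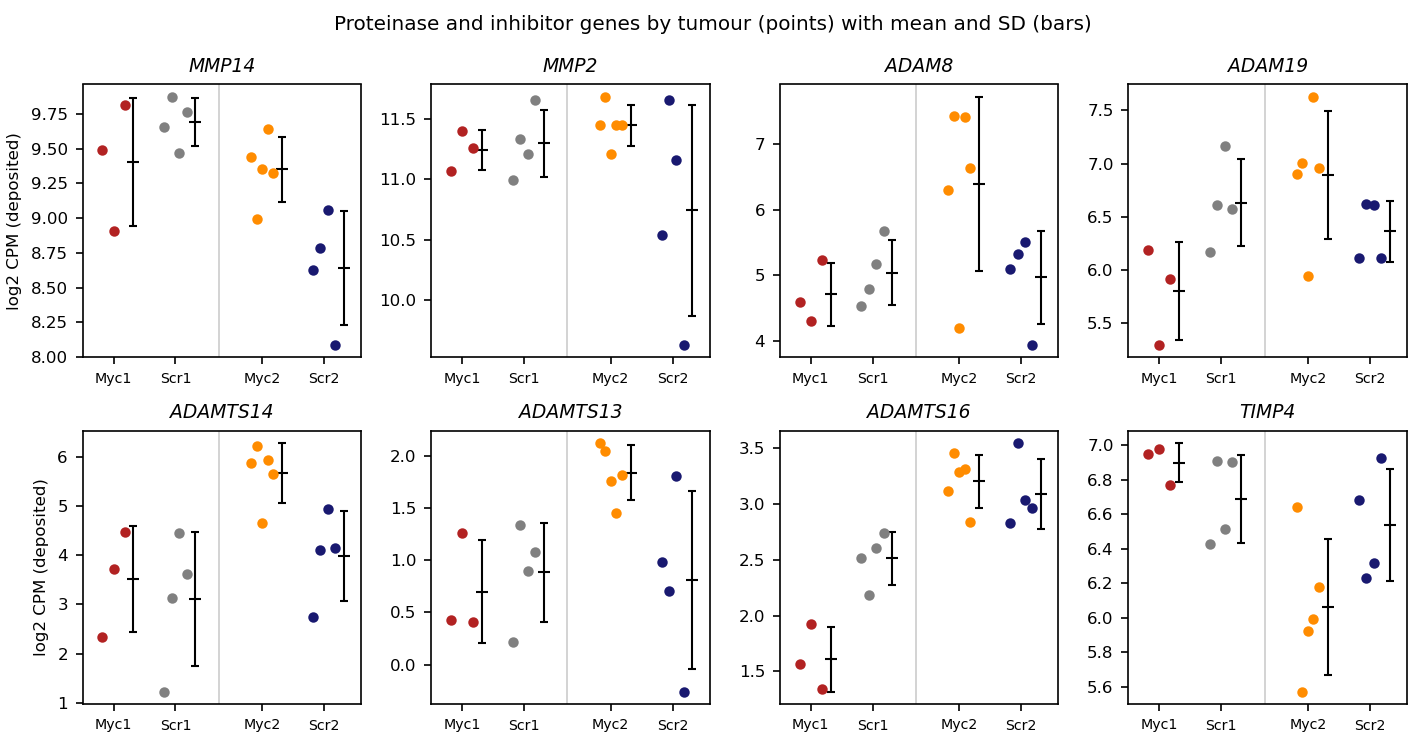
Deposited log2 CPM (vertical axes, a separate scale for each gene) of 8 proteinase and inhibitor genes in each tumour (points), with the group mean and SD (bars), for Myc1, Scr1, Myc2 and Scr2 from left to right. Scr2 replicate 4 holds the lowest MMP14 and MMP2 values, at 272 and 790 CPM. The line in each panel separates the experiments, which were normalized separately.

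MMP14 was at 693, 510, 653, 800 and 642 CPM in Myc2, against 395, 440, 533 and 272 CPM in Scr2. In 4 of 5 Myc2 tumours it was above every Scr2 tumour, and Myc2 replicate 2 lay below Scr2 replicate 3. The log2 difference was 0.71 ± 0.21 (SE; limma p = 0.0063, adjusted p = 0.370; exact permutation p = 0.0238, n = 5 and 4). Without Scr2 replicates 1 and 4 it was 0.43 (limma adjusted p = 0.999). MMP2 was at 2798, 3288, 2362, 2798 and 2798 CPM in Myc2, against 1486, 3225, 2285 and 790 CPM in Scr2. The 3 equal values arise because quantile normalization gives each library the same set of values. The Scr2 tumours were spread over a wider range than the Myc2 tumours, and the log2 difference of 0.70 ± 0.34 (limma adjusted p = 0.371) was 0.04 without Scr2 replicates 1 and 4.

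ADAMTS14 had the largest log2 difference of the tested genes with siRNA 2, at 59.1, 74.9, 25.1, 60.9 and 50.3 CPM in Myc2, against 6.70, 17.3, 30.6 and 17.8 CPM in Scr2. All Myc2 tumours except replicate 3 lay above all Scr2 tumours. The log2 difference was 1.68 ± 0.42 (SE; limma p = 0.0018, adjusted p = 0.370; exact permutation p = 0.0238, n = 5 and 4), and 1.14 without Scr2 replicates 1 and 4. With 1 tumour left out it ran from 1.27 to 2.00. ADAMTS13 was low in every tumour, at 4.33, 4.12, 3.37, 2.73 and 3.51 CPM in Myc2, against 1.98, 1.63, 3.50 and 0.837 CPM in Scr2. The groups overlapped through Scr2 replicate 3, and the log2 difference of 1.03 ± 0.39 (exact permutation p = 0.0238) was 0.58 without Scr2 replicates 1 and 4.

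ADAM8 was at 79.3, 173, 18.3, 171 and 99.7 CPM in Myc2, against 34.1, 40.2, 45.7 and 15.3 CPM in Scr2. Myc2 replicate 3 had less ADAM8 than all Scr2 tumours but the lowest, and the other 4 Myc2 tumours had more than any Scr2 tumour. The log2 difference was 1.43 ± 0.59 (SE; limma p = 0.0338, adjusted p = 0.370; exact permutation p = 0.111, n = 5 and 4), and 0.98 without Scr2 replicates 1 and 4. Of 8 microglia and macrophage markers, CD68, CSF1R and PTPRC were listed in this experiment. CD68 was at 166 to 259 CPM in Myc2 and 156 to 251 CPM in Scr2, CSF1R at 10.3 to 17.6 CPM in Myc2 and 6.56 to 16.7 CPM in Scr2, and PTPRC at 0.0279 to 0.469 CPM in Myc2 and 0.216 to 1.10 CPM in Scr2. Their summed level, nearly all of it CD68, was 178 to 277 CPM in Myc2 and 163 to 268 CPM in Scr2. It does not measure how many of these cells a tumour held, and their part in the ADAM8 values was not tested. ADAM28, also known from lymphocytes, differed by 1.09 ± 0.54 without passing the test. A log2 difference past 1 was found in 4 of 33 genes (ADAMTS14, ADAM8, ADAM28 and ADAMTS13), against 6.13% of all genes.

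ADAM15, a sheddase with an integrin-binding sequence, was at 80.8, 102, 96.1, 78.3 and 101 CPM in Myc2, against 115, 111, 121 and 105 CPM in Scr2. All 5 Myc2 tumours lay below all 4 Scr2 tumours. Over all genes 3.01% had separate groups, 1.40% with Myc2 higher and 1.61% with Myc2 lower. The log2 difference was -0.31 ± 0.15 (SE; limma p = 0.0574, adjusted p = 0.370; exact permutation p = 0.0238, n = 5 and 4), and -0.35 without Scr2 replicates 1 and 4. It was the single gene of the 33 with separate groups.

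The main sheddases had positive differences that did not pass the test. ADAM17 was at 34.9, 36.1, 45.1, 36.1 and 25.8 CPM in Myc2, against 18.9, 34.5, 28.0 and 25.9 CPM in Scr2, a log2 difference of 0.42 ± 0.21. ADAM19 was at 119, 129, 61.7, 198 and 125 CPM in Myc2, against 69.1, 98.3, 97.4 and 69.3 CPM in Scr2, a log2 difference of 0.53 ± 0.29. ADAM10 differed by 0.16 ± 0.18, ADAM9 by 0.17 ± 0.20 and ADAM12 by 0.35 ± 0.31. In all of these genes the groups overlapped, and without Scr2 replicates 1 and 4 the log2 differences of ADAM10, ADAM9 and ADAM12 were -0.03, -0.14 and -0.07. For ADAM17 and ADAM19, Scr2 replicates 1 and 4 held the lowest Scr2 values. The differences of these genes were thus smaller without those libraries, and they kept their sign.

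In the full fit the 3 inhibitors tested did not share a sign with siRNA 2. TIMP4 was at 99.98, 47.6, 60.5, 63.5 and 72.4 CPM in Myc2, against 103, 75.0, 79.5 and 122 CPM in Scr2. In 4 of 5 Myc2 tumours it was below every Scr2 tumour, and the log2 difference was -0.48 ± 0.23 (exact permutation p = 0.0952). TIMP1 was at 332, 348, 233, 303 and 405 CPM in Myc2, against 401, 269, 390 and 487 CPM in Scr2, which is a log2 difference of -0.25 (95% interval -0.71 to 0.22). TIMP2 was at 245, 285, 199, 317 and 279 CPM in Myc2, against 182, 317, 256 and 125 CPM in Scr2, and its log2 difference of 0.34 ± 0.26 was -0.12 without Scr2 replicates 1 and 4. Without those libraries 3 of the 4 inhibitors then tested lay below 0, and the 1 above 0 was TIMP3. The difference in sign between TIMP2 and the other inhibitors of the full fit, TIMP1 and TIMP4, thus rests on those libraries.

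Other members of the named set with siRNA 2 were MMP7 (-0.13 ± 0.59), MMP15 (-0.33 ± 0.44), MMP16 (0.21 ± 0.31), MMP19 (0.23 ± 0.20), ADAMTS1 (0.35 ± 0.34), ADAMTS4 (-0.15 ± 0.28) and ADAMTS16 (0.11 ± 0.23), given as log2 differences with SE. None had a limma p under 0.05. The median log2 difference was 0.12 for the 8 MMPs tested, 0.28 for the 12 ADAMs, 0.23 for the 10 ADAMTS genes and -0.25 for the 3 TIMPs. Over all genes it was -0.018. When Scr2 replicates 1 and 4 were left out, the median of the MMPs then tested was 0.14, with 6 of 9 above 0. That of the ADAMs was -0.067, with 4 of 12 above 0, and that of the ADAMTS genes -0.090, with 4 of 10 above 0. That of the TIMPs was -0.073, and over all genes it was -0.024. The filter then asked for fewer tumours, so MMP24 and TIMP3 entered, and both reached 1 CPM in Myc2 tumours alone. The MMP and TIMP medians at the 2 settings thus cover different genes. ADAMTS3, a second procollagen N-proteinase, lay on the other side of 0 from ADAMTS14, at -0.65 ± 0.36 and at -1.12 without Scr2 replicates 1 and 4.

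**Figure D3:**
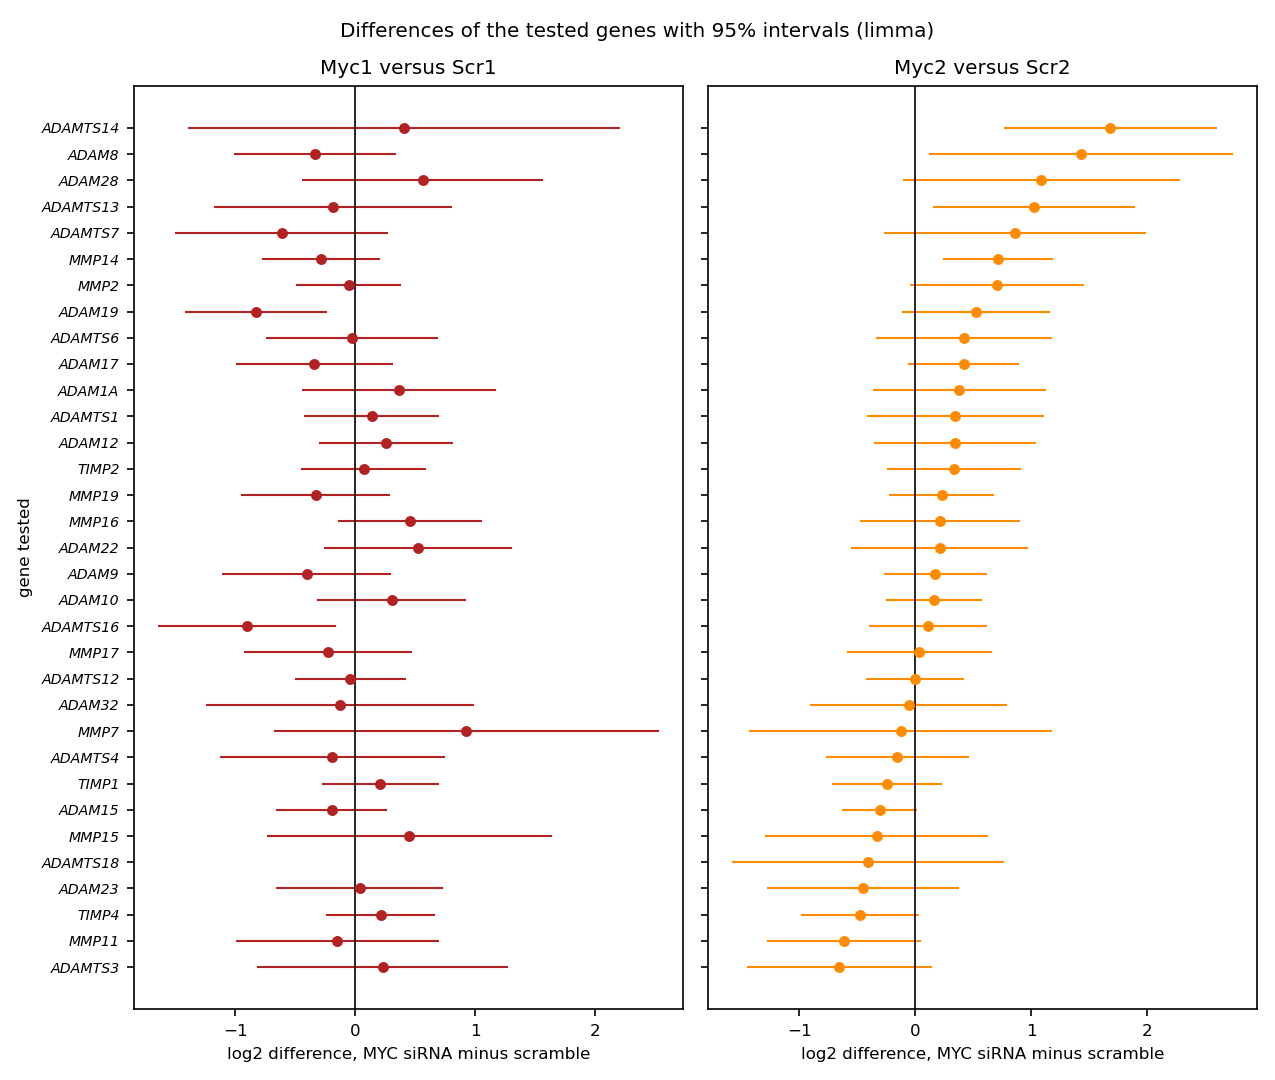
Log2 difference of each tested gene, MYC siRNA minus scramble (horizontal axes), with its 95% interval from limma, for Myc1 versus Scr1 on the left and Myc2 versus Scr2 on the right. Genes run down the page by their siRNA 2 difference, from ADAMTS14 (1.68) to ADAMTS3 (-0.65). The intervals of ADAM19 and ADAMTS16 exclude 0 on the left, and those of ADAMTS14, ADAM8, ADAMTS13 and MMP14 on the right, before adjustment.

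TIMP3 and MMP9, both under the filter in the second experiment, were singled out after their values were seen. TIMP3, the inhibitor that stays bound to the matrix and also blocks ADAM17, was at 1.26, 8.20, 4.81, 0.469 and 0.233 CPM in Myc2, against 0.413, 0.161, 0.0279 and 0.0958 CPM in Scr2, where replicates 3 and 4 were at the lowest value of their libraries. In 4 of 5 Myc2 tumours it was above every Scr2 tumour (exact permutation p = 0.0317, n = 5 and 4). When the filter was dropped, the log2 difference was 3.60 (limma adjusted p = 0.380). MMP9, the second gelatinase, was at 0.0615, 0.481, 1.61, 0.122 and 0.116 CPM in Myc2, against 0.0482, 0.228, 0.0735 and 0.0958 CPM in Scr2.

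CDH5, the cadherin of endothelial junctions, was at 0.990, 6.49, 5.02, 0.711 and 1.599 CPM in Myc2, against 0.353, 2.55, 0.116 and 0.313 CPM in Scr2. Its highest values were in Myc2 replicates 2 and 3, the tumours with the most TIMP3 and MMP9. Of 6 endothelial markers 4 were listed in this table and PECAM1 and CLDN5 were not. Their summed level was 4.07 to 12.9 CPM in Myc2 and 3.42 to 5.42 CPM in Scr2, and their part in the TIMP3 values was not tested. The sum includes CDH5, which made up 6.49 of 12.9 CPM in Myc2 replicate 2 and 5.02 of 8.06 CPM in Myc2 replicate 3. The log2 difference was 2.28 ± 0.91 for CDH5 (limma adjusted p = 0.370), 0.49 ± 0.40 for KDR, 0.34 ± 0.53 for TEK and 0.03 ± 0.45 for VWF, and CDH5 alone of the 4 had a limma p under 0.05. MMP24, a membrane-bound MMP known from the nervous system, was at 0.929, 1.39, 0.837, 1.04 and 0.749 CPM in Myc2, against 0.307, 0.753, 0.837 and 0.313 CPM in Scr2 (exact permutation p = 0.0397, n = 5 and 4).

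**Figure D4:**
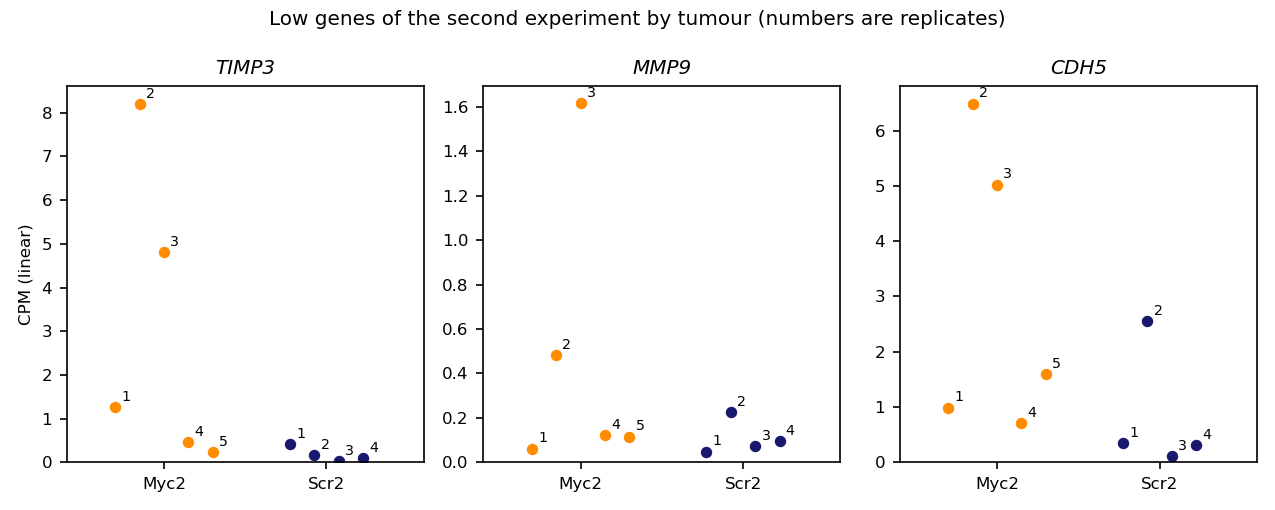
CPM on a linear scale (vertical axes) of TIMP3, MMP9 and the endothelial marker CDH5 in each tumour of the second experiment, Myc2 on the left and Scr2 on the right, with replicate numbers beside the points. Myc2 replicates 2 and 3 hold the 2 highest values in all 3 panels.

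Whether the effects differed between the experiments was tested directly, as the siRNA 1 log2 difference minus the siRNA 2 log2 difference over genes tested in both experiments. The limma p was under 0.05 for 5 of 32 genes, against 8.75% of 13656 genes, and none passed adjustment (limma adjusted p = 0.528 for all 5). The siRNA sequence and the experiment cannot be told apart here. ADAM19 had log2 differences of -0.83 with siRNA 1 and 0.53 with siRNA 2, and the effects differed by -1.35 ± 0.43 (SE). MMP14 had log2 differences of -0.29 and 0.71, which differed by -0.997 ± 0.322. ADAMTS16 (-0.90 and 0.11), TIMP4 (0.21 and -0.48) and ADAM8 (-0.33 and 1.43) had effects that differed by -1.01 ± 0.35, 0.69 ± 0.31 and -1.76 ± 0.80. Without Scr2 replicates 1 and 4, 2 genes were left at a limma p under 0.05, ADAM19 (-1.10) and MMP14 (-0.71).

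The direction of the 32 genes was the same in both experiments for 14, or 9 higher and 5 lower, while 45.7% of all genes shared a sign. There were 12 genes below 0 with siRNA 1 and above 0 with siRNA 2, against 26.0% of all genes, and 6 the other way. The experiments share no samples, and no test was made of these counts.

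The genes that activate, dock or regulate the proteinases were counted as lists. Of 22 activators, regulators and inhibitors 18 were tested in each experiment. With siRNA 1, 9 lay above 0, and the proprotein convertase FURIN, which removes the propeptide of MMP14 and many ADAMs, had a log2 difference of -0.72 ± 0.31 (limma adjusted p = 0.996), the single one of the 18 with a limma p under 0.05, against 3.48% of all genes. Without Scr1 replicate 4 none had such a p and 10 lay above 0, where 2.03% of all genes had such a p and 49.2% lay above 0. With siRNA 2, 17 of the 18 lay above 0, with a median of 0.27 against -0.018 over all genes, and 5 had a limma p under 0.05, all higher, against 7.00% of all genes higher. The urokinase gene PLAU, whose product generates plasmin, ranged from 441 to 845 CPM in Myc2 and from 224 to 478 CPM in Scr2, a log2 difference of 0.92 ± 0.26. The lysosomal proteinase CTSB differed by 0.57 ± 0.16, the transcription factor ETS1 by 0.73 ± 0.27 and the endocytic receptor LRP1, which clears proteinase and inhibitor complexes, by 1.30 ± 0.58. All had a limma adjusted p of 0.370. Without Scr2 replicates 1 and 4, 17 of the 20 tested then lay above 0, and CTSB alone (0.54) had a limma p under 0.05. Over all genes at that setting 46.0% lay above 0 and 3.48% had such a p. The tested set grew from 18 to 20 because the filter then asked for fewer tumours.

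Of 13 genes listed as ADAM partners, most of them for ADAM10 and ADAM17, 12 were tested. The list also holds the scaffolds SH3PXD2A and SH3PXD2B, which are not known as partners of ADAM10 or ADAM17. Its counts are therefore not those of ADAM10 and ADAM17 partners alone. None had a limma p under 0.05 with siRNA 1, where 6 lay above 0. With siRNA 2, 4 of the 12 did, all with a positive log2 difference, whereas 13.4% of all genes had such a p, 7.00% with a positive difference. They were RHBDF2, which brings ADAM17 to the cell surface (1.32 ± 0.38), the invadopodia scaffolds SH3PXD2B (0.61 ± 0.22) and SH3PXD2A (1.07 ± 0.45), and the integrin subunit ITGA5 (0.62 ± 0.26). RHBDF2 ranged from 11.3 to 47.6 CPM in Myc2 and from 6.30 to 14.0 CPM in Scr2. Of the 12, 9 lay above 0, and without Scr2 replicates 1 and 4, 8 did, none had such a p, and RHBDF2 differed by 0.87. Over all genes at that setting 46.0% lay above 0 and 3.48% had such a p.

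Of 26 proteins shed by ADAM10 or ADAM17, 19 were tested. A limma p under 0.05 was found for 2 of them with siRNA 1, against 3.48% of all genes, and for 3 with siRNA 2, against 13.4%. With siRNA 2, 17 of the 19 lay above 0, against 48.2% of all genes. Without Scr2 replicates 1 and 4, 12 of 19 did, against 46.0% of all genes. TGFA, the growth factor whose release by ADAM17 activates the EGF receptor, differed by 0.95 ± 0.42 with siRNA 1 (limma adjusted p = 0.996) and by 1.31 ± 0.35 with siRNA 2 (limma adjusted p = 0.370). It ranged from 7.39 to 18.9 CPM in Myc1 and from 3.13 to 8.52 CPM in Scr1, and from 12.9 to 40.8 CPM in Myc2 and from 6.05 to 14.6 CPM in Scr2. The groups overlapped in both experiments, and without Scr2 replicates 1 and 4 the siRNA 2 difference was 1.01. The receptor gene NOTCH2 differed by -0.54 ± 0.24 with siRNA 1, and by -0.42 without Scr1 replicate 4, where its limma p was above 0.05. With siRNA 2, NOTCH3 differed by 1.58 ± 0.37 and NOTCH1 by 0.89 ± 0.39, which was 0.15 without Scr2 replicates 1 and 4. NOTCH3 was at 14.4 to 42.9 CPM in Myc2 and 4.82 to 12.1 CPM in Scr2, with no overlap, and its difference was 1.05 without Scr2 replicates 1 and 4.

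Of 18 ADAMTS substrates and ADAMTS-like proteins, 10 were tested with siRNA 1 and 11 with siRNA 2. None had a limma p under 0.05 with siRNA 1. PLOD1, a lysyl hydroxylase counted with this list, was the single one of the 11 that did with siRNA 2 (0.79 ± 0.22, limma adjusted p = 0.370), against 13.4% of all genes. With siRNA 2, 10 of the 11 lay above 0, against 48.2% of all genes. Without Scr2 replicates 1 and 4, 4 of the 12 then tested did, against 46.0% of all genes. Of 15 matrix and basement membrane substrates of MMPs, 13 were tested. With siRNA 1 the elastic fibre gene ELN (1.36 ± 0.45) and the laminin chain LAMA4 (1.26 ± 0.42) had a limma p under 0.05, both with positive log2 differences, at an adjusted p of 0.996. That is 2 of 13, against 3.48% of all genes (1.96% higher). ELN was at 6.503 to 24.0 CPM in Myc1 and 2.78 to 4.75 CPM in Scr1, with no overlap. With siRNA 2 none of the 13 had such a p. Of them 9 lay above 0 (48.2% of all genes did), with a median of 0.22. Without Scr2 replicates 1 and 4, 5 lay above 0 and 8 below, with a median of -0.22. Over all genes at that setting 46.0% lay above 0, with a median of -0.024.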

How the data were processed

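RNA from 16 xenografts was profiled by RNA sequencing. The submitters' processing notes name bcl2fastq 2.20.0, STAR 2.6.0b and Picard as tools and hg19 and mm10 as builds. How reads were counted, on which annotation, and whether mouse reads were set apart is not given in the sources used here. For each experiment the authors deposited 1 table of log2 values. Taken back from log2, the deposited values summed to 998367 to 998392 in the first table and 995054 to 995076 in the second, and sorted values of different libraries coincided, so they are log2 CPM, quantile-normalized within each table. Such values cannot show a shift of the whole distribution. Neither table held mouse gene identifiers.

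Groups came from the treatment label. Each library has its own mouse by its title, and replicate numbers follow the order of listing. Library sizes were estimated from the spacing of the lowest values. Genes with at least 1 CPM in 3 tumours (first experiment) or 4 (second) entered a limma fit (version 3.58.1, R 4.3.3, with trend and robust settings), with Benjamini-Hochberg adjustment over all genes tested. A joint fit of the 4 groups gave the difference between the effects. A plan for linear values with log2(value + 1) did not apply, as the values were log2 already. Exact two-sided permutation of the labels was applied to single values, with 35 arrangements in the first experiment and 126 in the second, where the smallest possible p are 0.0286 and 0.00794. The fit was tried on simulated counts with equal depth, the same spread for all genes and no outlying library. That trial does not show how the fit behaves with libraries as uneven as these. Exon lengths were those of GENCODE 29, found for all 43 genes.

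Named genes were those with an unadjusted p under 0.05 or with groups that do not overlap, plus well known proteinases and the TIMPs, and at most 4 genes of a list per comparison. The genes, the rule, the lists (activators and regulators, ADAM partners, shed substrates, ADAMTS substrates, matrix substrates, and markers of 7 cell types) and the tests were chosen with earlier results of these data known. The alternatives tried were pseudocounts of 0.1 and 1, no filter, a mean of at least 2 CPM, limma without trend and robust settings, array weights, median centring, leaving out each tumour, and leaving out Scr2 replicates 1 and 4.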

Additional observations from a re-analysis of the deposited data

Results flagged for a closer look

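In 6 of 119 groups of 4 or 5 tumours, the highest or lowest tumour stood apart from the rest of its group by Dixon's ratio, the gap to its neighbour over the group's range. Chance flags about 1 in 20 groups. In Scr1, ADAMTS18 was highest in replicate 4, at 1.95 CPM, with a ratio of 0.899. In Scr2, ADAM23 was lowest in replicate 1, at 3.96 CPM (ratio 0.885), and ADAMTS12 was highest in replicate 3, at 118 CPM (ratio 0.854). In Myc2, ADAMTS6 was lowest in replicate 5, at 13.1 CPM (ratio 0.821), MMP25 in replicate 3, at 0.0615 CPM (ratio 0.816), and MMP11 in replicate 2, at 4.49 CPM (ratio 0.713). Where they passed the filter, these genes had no limma p under 0.05 in either comparison.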

How the results depend on the processing

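No paired analysis was made, as each library has its own mouse with 1 treatment and the labels give no pairs. No symbol was repeated, so no second row was tried. Over 45 single-gene results, 714 of 736 recomputed values kept their direction and their side of the adjusted threshold of 0.05, and 22 in 13 results turned their sign. Changing the filter, or the trend and robust settings, leaves the log2 difference of a gene as it was. For those alternatives the direction was fixed in advance, so the count of 714 does not measure how well the results hold. No gene of the family passed adjustment under any alternative. The count over all genes, 0 in both comparisons, ran from 0 to 2 with 1 tumour left out with siRNA 1 (2 without Myc1 replicate 1 or 2, 1 without Scr1 replicate 2) and from 0 to 9 with siRNA 2 (9 without Myc2 replicate 3, 2 without Scr2 replicate 3, 1 without Scr2 replicate 2), and was 2 without Scr2 replicates 1 and 4. Family genes at an unadjusted p under 0.05 numbered 2 with siRNA 1, 4 without the filter, and 1 to 5 with 1 tumour left out (1 without any Myc1 tumour, 5 without Scr1 replicate 2). With siRNA 2 they numbered 4, 6 without the filter (MMP24 and TIMP3 added), 6 with array weights (ADAM15, ADAM28 and ADAMTS3 added, ADAMTS13 lost), and 3 to 10 with 1 tumour left out (10 without Scr2 replicate 2, 8 without Scr2 replicate 3). For the difference between effects they numbered 5, 3 to 7 with 1 tumour left out (3 without Scr2 replicate 1 or replicate 4), and 2 without both. With fewer tumours the filter admits more genes, TIMP3 among them, and MMP24 too without Scr2 replicates 1 and 4. The share of all genes at an unadjusted limma p under 0.05 moved as well. With siRNA 1 it was 3.48%, 6.92% without Scr1 replicate 3 and 2.03% without Scr1 replicate 4. With siRNA 2 it was 13.4%, and 3.48% without Scr2 replicates 1 and 4. For the other alternatives it is not given, so those family counts are not set against all genes. A rise or fall in them is therefore not a result about the family. With 1 tumour left out, the siRNA 1 log2 differences ran from -0.613 to 0.000961 for ADAM9, -0.0403 to 0.264 for ADAMTS1, -0.502 to 0.153 for ADAMTS4, -0.157 to 0.0649 for MMP2, -0.0120 to 0.358 for TIMP1 and -0.0660 to 0.251 for TIMP2. Those with siRNA 2 ran from -0.0903 to 0.374 for MMP16 and -0.472 to 0.252 for MMP7. Without Scr2 replicates 1 and 4 the sign turned for ADAM10 (-0.0334), ADAM12 (-0.0697), ADAM9 (-0.141), ADAMTS16 (-0.0875), MMP16 (-0.101), MMP7 (0.381) and TIMP2 (-0.123), and with array weights for ADAM9 (-0.0172) and MMP16 (-0.0839). The cause was not tested. In some tumours MMP1, MMP9, ADAMTS5 and TIMP3 lie near the lowest value that their libraries can show, which limits their results. For TIMP3 this holds for Scr2, whereas it reached 8.20 CPM in Myc2.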
